A study of Mus musculus with 5 samples.

Results

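Intergenic regions that carried H3K27me3 peaks in both E14.5 libraries of dermal fibroblasts and in neither E18.5 library numbered 2008 of 24721 merged autosomal regions. They were selected on that presence and absence of peaks, so the loss itself is the rule that chose them and not a result. On the 19 autosomes, peaks from the 4 lists were joined wherever they shared at least 1 bp. A region was kept when it had no single peak of 10000 bp or more, lay more than 3000 bp from every protein-coding start site and overlapped no protein-coding gene body. Over all places, 40.7% of the 9552 regions marked in both E14.5 libraries had no E18.5 peak, and the 2008 intergenic ones are 51.7% of these. The comparison of the stages chose the regions, so nothing is read from either share about them.

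The cells were wild-type mouse dermal fibroblasts, expanded in culture before chromatin was collected, and there were 2 libraries at each stage. The labels give the stages as E14 and E17, where the study gives E14.5 and E18.5, and the study's names are used here. The labels also name DMEM with serum, sonication and an Ion Torrent kit, whereas the methods name AmnioMAX medium, enzymatic digestion and Illumina sequencing. Cultured cells can differ from the dermis they came from, and the sources used here do not say whether the libraries of a stage came from separate litters. Of the promoters (3000 bp either side of a start site) of 37 dermal fibroblast genes, 17 held no H3K27me3 peak in any library, 16 had peaks in all 4 and 4 in both E14.5 libraries alone. Col1a1, Col1a2, Col3a1, Pdgfra, Dpt and Lum, named after their values were seen, were among the 17, and En1, Meox1, Tbx15 and Tbx18 were the 4. The 16 with peaks in all 4 were Foxc1, Foxc2, Foxf1, Foxf2, Gata2, Gata3, Gata6, Lef1, Meox2, Msx1, Msx2, Nfib, Tcf7, Tfap2a, Tfap2b and Tfap2c. Peak lists do not measure expression, so the cell type was not checked against its markers beyond this.

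H3K27me3 is deposited by Polycomb repressive complex 2 and removed by the demethylases Kdm6a and Kdm6b. In mammals it gathers at CpG-rich promoters of developmental regulators that are silent in a cell, and it can spread over the intergenic chromatin around them. Intergenic H3K27me3 is often found in the long gene-free stretches that flank such regulators, where distant enhancers lie.

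The sequences below let the strongest of these regions be set beside the strongest intergenic regions that kept the mark. The first 3 belong to members at the top of the E14.5 ranking by fold enrichment whose sequence matched 1 place in the genome, and the other 2 from the same ranking of intergenic regions with a peak in all 4 libraries. Each is the stretch of up to 300 bp richest in CG within the interval shared by both E14.5 libraries, read 5′ to 3′ on the plus strand of GRCm38.p6 (RefSeq), with CG dinucleotides in capitals.
Near Gm8220, chr14:44249601-44249861: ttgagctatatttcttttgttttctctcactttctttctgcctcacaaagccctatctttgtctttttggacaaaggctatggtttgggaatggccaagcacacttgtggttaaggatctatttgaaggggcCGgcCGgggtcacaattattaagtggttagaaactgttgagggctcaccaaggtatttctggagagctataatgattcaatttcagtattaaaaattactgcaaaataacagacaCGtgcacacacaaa
Near Cdkn2c, chr4:109657134-109657433: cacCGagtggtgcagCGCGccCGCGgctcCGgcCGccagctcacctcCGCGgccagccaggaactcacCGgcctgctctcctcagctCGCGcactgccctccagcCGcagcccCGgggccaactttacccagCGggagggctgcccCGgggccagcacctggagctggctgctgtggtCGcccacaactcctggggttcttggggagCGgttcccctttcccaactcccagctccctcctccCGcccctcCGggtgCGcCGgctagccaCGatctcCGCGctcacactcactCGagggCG
Near Gm2310, chr15:8568300-8568599: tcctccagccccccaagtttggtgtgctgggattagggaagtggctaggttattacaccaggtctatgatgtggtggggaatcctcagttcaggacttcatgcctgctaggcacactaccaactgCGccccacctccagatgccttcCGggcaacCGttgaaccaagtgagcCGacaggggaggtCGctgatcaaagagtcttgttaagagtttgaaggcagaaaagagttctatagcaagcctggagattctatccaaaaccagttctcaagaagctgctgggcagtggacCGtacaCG
Retained, near 1700067P10Rik, chr17:48097691-48097990: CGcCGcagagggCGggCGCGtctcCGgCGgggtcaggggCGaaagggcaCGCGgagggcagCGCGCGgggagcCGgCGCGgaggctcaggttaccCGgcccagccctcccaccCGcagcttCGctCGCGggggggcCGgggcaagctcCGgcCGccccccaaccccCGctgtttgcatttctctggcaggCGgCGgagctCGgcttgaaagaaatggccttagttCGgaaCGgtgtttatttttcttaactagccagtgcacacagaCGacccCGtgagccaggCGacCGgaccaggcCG
Retained, near Tmem161b, chr13:84346085-84346384: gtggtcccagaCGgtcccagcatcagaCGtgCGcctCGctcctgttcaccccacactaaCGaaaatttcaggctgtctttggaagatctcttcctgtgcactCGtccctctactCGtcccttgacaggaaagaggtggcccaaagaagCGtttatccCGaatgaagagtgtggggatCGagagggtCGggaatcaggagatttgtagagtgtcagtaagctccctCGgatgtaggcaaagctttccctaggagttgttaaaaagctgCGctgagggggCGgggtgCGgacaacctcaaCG
The E14.5-only sequences held 3 CG in 261 bp near Gm8220, 27 CG near Cdkn2c and 7 CG near Gm2310, each of the last pair in 300 bp. The retained ones held 35 and 16. The stretches were chosen from shared intervals of 261, 5263 and 686 bp in the E14.5-only regions, and of 7183 and 6578 bp in the retained ones. A longer interval offers more stretches to choose from, so these counts are not compared like for like. The Cdkn2c sequence was 72.7% G + C, and the Gm8220 sequence 39.8%.

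Of the 3991 intergenic regions shared by the E14.5 libraries, 1005 (25.2%) still had a peak in 1 E18.5 library and 978 (24.5%) in both. The remaining 2008 make up 50.3% (Wilson 95% interval 48.8 to 51.9%, counting error only), against 47.2% for regions inside genes (705 of 1493) and 28.8% for promoter regions (1173 of 4068). The intergenic share exceeded the promoter share on 19 of 19 autosomes, which all come from the same libraries and are not replicates of the stages. The places differed in the strength of their E14.5 peaks. When regions were grouped by their mean percentile of fold enrichment within the E14.5 lists, the intergenic and promoter shares were close: 58.1% and 58.4% between the 40th and 60th percentiles, 33.2% and 36.7% between the 60th and 80th, and 4.92% and 3.36% above the 80th. Above that level lay 1965 promoter regions and 447 intergenic ones. Below the 20th percentile, 68.1% of 323 intergenic and 88.6% of 70 promoter regions had no E18.5 peak.

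**Figure D1:**
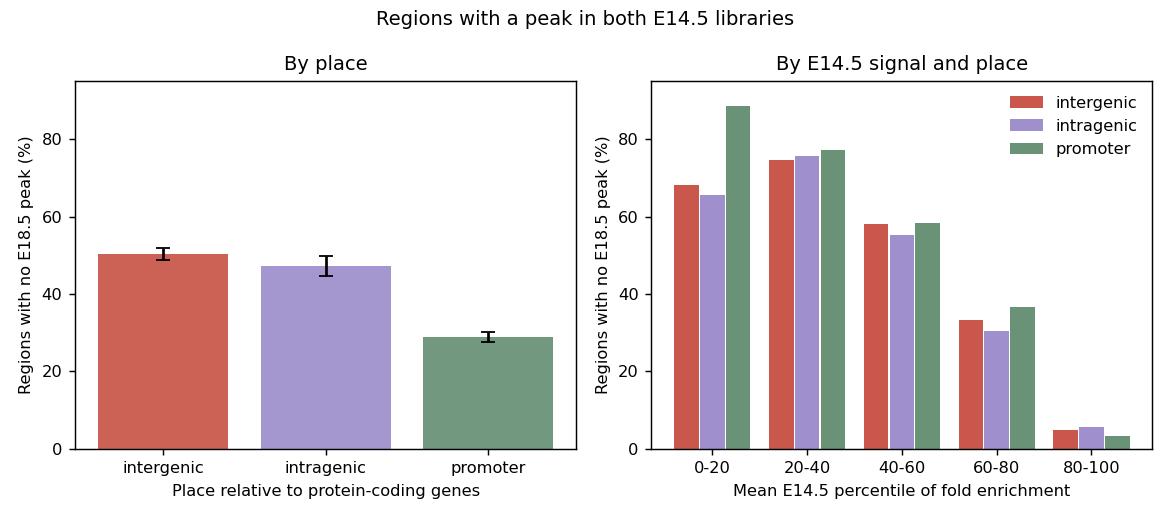
Percent of regions shared by the E14.5 libraries that had no E18.5 peak, by place (left, bars with Wilson 95% intervals) and by place within 5 bands of the mean E14.5 percentile of fold enrichment (right). The intergenic bar stands at 50.3% and the promoter bar at 28.8%, while in the band from 40 to 60 they stand at 58.1% and 58.4%.

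The lists themselves differed in length. The E14.5 libraries had 21546 and 16574 peaks on all chromosomes listed, the E18.5 libraries 10429 and 7107, and the lists record no read depth. With every list cut to the number of peaks in the shortest, by q-value, 277 of 1082 intergenic regions (25.6%) had no E18.5 peak. The number of intergenic regions marked in both E14.5 libraries was then 1082, where the full lists gave 3991. The part of list length in the share was not tested.

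Just inside the limits of the rule, members near Ramac, Sap130 and Tmem125 lay 3004, 3006 and 3021 bp from a start site. Just outside, regions near Cdc37l1, Olfr94 and Zfp799 lay 3000, 2994 and 2990 bp away. The widest single peaks inside were 8548, 8503 and 8482 bp, near Gm5447, Ktn1 and Gm12830. Excluded for width were 3 intergenic regions marked at E14.5 only, with peaks of 10123 bp near Gm15217, 12141 bp near Hoxc4 (chr15:103053823-103065963) and 10330 bp near Rybp. The nearest E18.5 peak to any member lay 3 bp away, at a region near Paqr9.

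The regions were narrower and weaker at E14.5 than intergenic regions that kept the mark. Their merged length had a median of 1660.5 bp (quartiles 1071 and 2487, range 249 to 8730). Of them, 1848 (92.0%) consisted of 1 peak in each E14.5 library, against 67.9% of intergenic regions retained in all 4 libraries. The covered width had a median of 1479 bp in replicate 1 and 702 bp in replicate 2, and 1613 regions (80.3%) were wider in replicate 1. The median overlap of the libraries was 526 bp, 38.4% of their union. Regions retained in all 4 libraries had medians of 3836.5 and 2516.5 bp in the same 2 libraries, and an overlap of 63.4% of their union. A region was retained when peaks of both E18.5 libraries merged into it by as little as 1 bp, which a wider region meets more easily. Such peaks could also join E14.5 peaks into 1 region, with widths summed and the highest fold enrichment taken. How much of the difference in width and strength follows from this rule was not tested.

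Fold enrichment, the ratio of a peak's signal to its local background, had a median of 3.21 in replicate 1 and 3.35 in replicate 2 over the E14.5-only regions, against 3.80 and 3.90 over the retained ones. On a scale of percentiles within each list, their medians were 50.01 and 36.1, against 64.3 and 45.9 for regions with 1 E18.5 peak and 80.8 and 70.9 for retained regions. In both libraries the E14.5-only median was the lower of the 2 on 19 of 19 autosomes. The −log10 q-value had medians of 3.40 and 2.97, and it was under 3 in at least 1 E14.5 library for 1255 members (62.5%). At −log10 q of at least 5 in both libraries there were 77 (3.83%) of the E14.5-only regions and 409 (41.8%) of the retained ones.

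**Figure D2:**
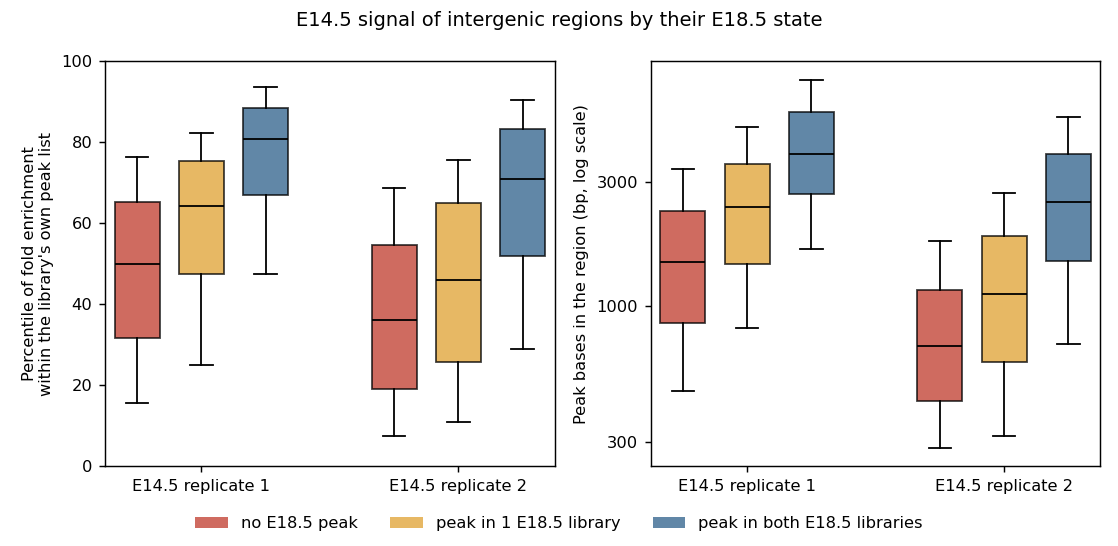
E14.5 percentile of fold enrichment (left) and bases covered by peaks (right, log scale) in each E14.5 library for intergenic regions by the number of E18.5 libraries with a peak. Boxes span the quartiles with a line at the median and whiskers reach the 10th and 90th percentiles of the regions. In replicate 1 the median percentile steps from 50.01 through 64.3 to 80.8.

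The E14.5 libraries ranked the members loosely. Spearman's rho between their percentiles was 0.30 over the 2008 regions and 0.80 over the 978 retained ones, and it was 0.41 and 0.76 for covered width (descriptions across regions, which are not replicates). Fold enrichment in replicate 1 had quartiles of 3.05 and 3.40 over members, and 3.43 and 4.40 over retained regions. The quartiles of its percentile were 31.6 and 65.3 over members, and 66.8 and 88.5 over retained regions. How far these ranges set the rho values was not tested. Of the members, 397 (19.8%) were above the 50th percentile in both lists.

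The members lay closer to genes than intergenic sequence at large. The nearest protein-coding start site was at a median of 24076 bp (quartiles 10221 and 73215), against 114964 bp over 135293 points placed every 10000 bp through the intergenic genome. Within 100 kb of a start site were 1613 members (80.3%), against 47.0% of the points. The stretch between the flanking gene bodies had a median of 97777 bp around members and 543332 bp around the points, and 348 members (17.3%) lay in gene-free stretches of 500000 bp or more, against 51.8% of the points. Retained intergenic regions lay somewhat farther from genes, at a median of 30842.5 bp from a start site, and the members' median was the lower on 15 of 19 autosomes. Among regions of like strength, in quintiles of the mean E14.5 percentile, it was the lower in 4 of 5, and in quintile 3 the order was the other way, 23878.5 bp for members and 19597 bp for retained regions. Of the members, 1348 (67.1%) lay on the upstream side of the nearest start site. That share was 65.97% for regions with 1 E18.5 peak, 58.9% for retained regions and 58.6% for the points.

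Retained H3K27me3 was also near. A retained region is here any region, of any place and width, with a peak in all 4 libraries. The nearest one was at a median of 56765 bp from a member, 26564 bp from another retained intergenic region and 521653 bp from the points. Within 10000 bp of a retained region were 483 members (24.1%), and 1203 (59.9%) were within 100 kb, against 35.3% and 72.6% of retained intergenic regions and 3.41% and 16.9% of the points. The members' median distance was above that of retained intergenic regions on 17 of 19 autosomes. The nearest retained region of 1201 members (59.8%) was a promoter region, against 44.3% of retained intergenic regions. Any E18.5 peak lay within 5000 bp of 513 members (25.5%) and within 10000 bp of 771 (38.4%). For 333 members (16.6%) a retained region lay within 5000 bp, and merging peaks across gaps of up to 3000 bp left 1513 regions.

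**Figure D3:**
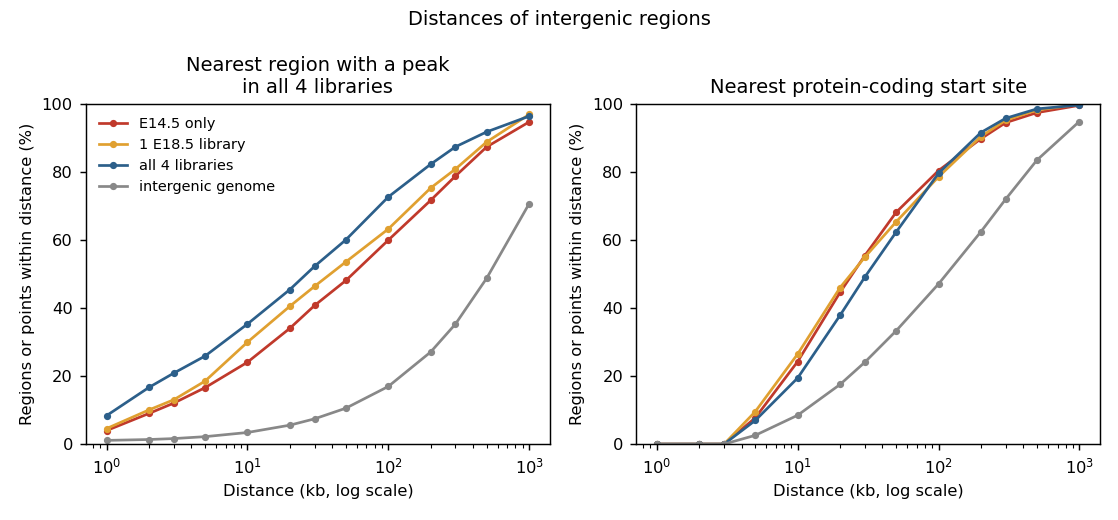
Cumulative percent of intergenic regions, by the number of E18.5 libraries with a peak, and of points every 10000 bp in the intergenic genome, within a given distance (kb, log scale) of the nearest retained region (left) or protein-coding start site (right). At 100 kb from a retained region the curves stand at 59.9% for E14.5-only regions, 72.6% for retained regions and 16.9% for the genome.

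Base composition set the members between retained regions and the surrounding sequence. In the 500 bp around the middle of the interval shared by the E14.5 peaks, the ratio of observed to expected CG had a median of 0.213, against 0.196 in windows 10000 bp to either side, 0.143 over the points and 0.275 over retained intergenic regions. The members' median was above that of their flanks on 15 of 19 autosomes and below that of retained regions on 16. A CpG-rich stretch, 200 bp with at least 50% G + C and a ratio of at least 0.6, lay in 203 members (10.1%), in 215 retained regions (22.0%) and at 2.43% of the points. Promoter regions marked at E14.5 only had a median ratio of 0.270. CG density at the centre was 1.32 per 100 bp over members and 1.88 over retained regions. In the bin 2250 bp before it, the lowest of all bins for members, the values were 0.971 and 1.12. In the bin 9750 bp before it they were 1.15 and 1.16.

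The difference in CG from retained regions varied with the strength of the E14.5 peak. In quintile 5 (the strongest) of intergenic regions by mean percentile the ratio was 0.242 over 102 members and 0.352 over 546 retained regions. In quintiles 3 and 4 the order was the other way, 0.227 against 0.180 and 0.261 against 0.210. The share with a CpG-rich stretch also changed order with strength. It was higher over members in quintiles 2, 3 and 4, with 7.68% against 1.59% in quintile 2 and 10.8% against 8.11% in quintile 3. In quintiles 1 and 5 it was lower over members, 7.13% against 17.2% and 15.7% against 31.3%. The distance to the nearest retained region was larger for members than for retained regions in each of the 5 quintiles, from 40019 against 20529 bp in quintile 2 to 79433 against 30600.5 bp in quintile 5.

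**Figure D4:**
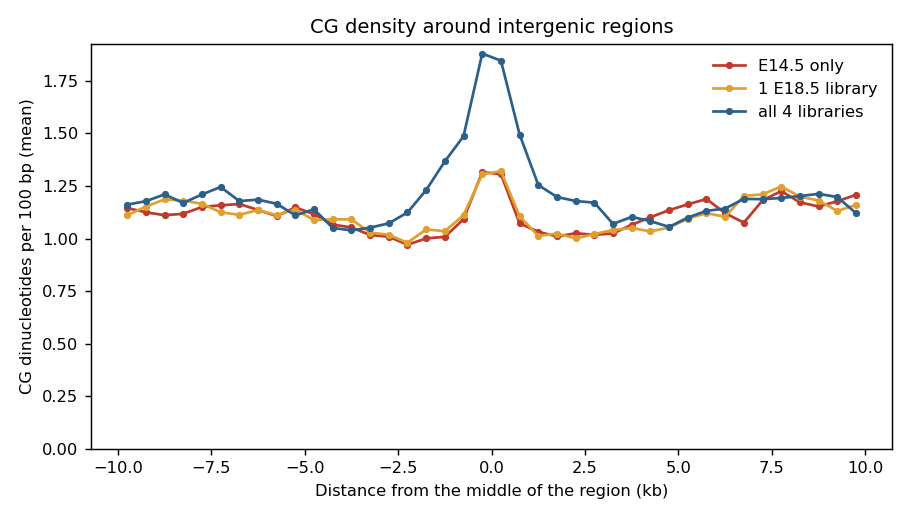
Mean number of CG dinucleotides per 100 bp in 500 bp bins around the middle of intergenic regions by the number of E18.5 libraries with a peak. Over E14.5-only regions the central bin reaches 1.32 and over regions retained in all 4 libraries 1.88, while the curves run together beyond about 5 kb.

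Runs of 6 CA or 6 GA dinucleotides on either strand, which mark simple repeats, were in 60 (2.99%) and 79 (3.93%) of the central windows of members and at 7.03% and 3.35% of the points. Masked repeats covered a median of 16.0% of the central window, against 27.6% at the points. A smaller set had repeated sequence. In 166 members (8.27%) fewer than 80% of the 100 bp pieces matched 1 place in the genome, and in 70 (3.49%) none did. These shares were 7.36% and 2.66% of retained intergenic regions. The 166 were shorter, with a median of 940.5 bp, and a retained region was within 100 kb of 31.9% of them, against 62.4% of the others. In 35 members the −log10 q-value was at least 5 in both E14.5 libraries while the fold enrichment was below the 20th percentile of both lists. Their median length was 280 bp, the median share of the central window masked as repeat was 100%, and 34 of the 35 had fewer than 80% unique pieces. Without the 166, 1842 members remained of 3674 intergenic regions (50.1%).

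Long noncoding RNA genes overlapped 292 members (14.54%), and 146 (7.27%) were within 3000 bp of a start site of one, against 18.51% and 12.5% of retained intergenic regions. The retained regions were longer, with a median of 4076 bp against 1660.5 bp, and a longer region meets a gene more easily. How much of the difference follows from length was not tested. The rule removed protein-coding genes alone, and with every annotated gene removed 1532 members were left. The noncoding gene 2600014E21Rik overlapped 6 members and Gm29724 5. These 2 were chosen for mention after their counts were seen.

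The members were spread over all 19 autosomes, from 0.336 per Mb on chromosome 16 to 1.29 per Mb on chromosome 11, and the share of intergenic E14.5 regions without an E18.5 peak ran from 40.3% on chromosome 12 to 60.4% on chromosome 15. Many were still neighbours. When members with gaps of up to 50 kb were joined, 840 (41.8%) fell into 335 clusters of 2 to 7 and 1168 stood alone. Clusters of 4 or more numbered 34 and held 158 members. Another member was within 5000 bp of 296 and within 1000 bp of 101. Retained regions had a member within 50 kb about as often (43.4%), as had regions with 1 E18.5 peak (42.7%). Of the nearest E14.5-marked regions on either side of a member, of any place, 40.8% had no E18.5 peak and 38.3% were retained, against 38.0% and 41.3% of all such regions.

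The cluster on chromosome 13 (chr13:56163881-56241812) held 7 members in 77932 bp around Tifab and beside Neurog1, a neurogenic bHLH factor whose own broad domain was retained. Their percentiles ran from 8.93 to 77.0 in replicate 1 and from 3.37 to 69.6 in replicate 2. The member of 1823 bp that was highest in both libraries lay 28995 bp from the Tifab start, with fold enrichments of 3.66 and 3.87. One retained region and 1 with a single E18.5 peak lay among them, and the members stood 903 to 17607 bp from retained regions.

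The cluster on chromosome 5 (chr5:120245586-120443285) spread 7 members of 546 to 1325 bp over 197700 bp between Rbm19 and Sdsl, across Lhx5, which encodes a LIM homeobox factor. Here 7 retained regions and 2 with 1 E18.5 peak lay between the members, each of which was within 12600 bp of a retained region.

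The cluster between Stambp and Cd207 on chromosome 6 (chr6:83581037-83664636), across Clec4f, was of another form. Its 7 members covered 20623 bp of 83600 bp, and no region within it had an E18.5 peak in both libraries. The widest, 4718 bp long, was covered by 4594 bp of peak in replicate 1 and 581 bp in replicate 2. The nearest retained region lay near Cd207, the gene for langerin, 11444 to 90326 bp away. In that region the peaks of the E18.5 libraries did not overlap each other. They lay 55.222 to 55.845 kb from the middle of the cluster in replicate 1 and 57.396 to 57.85 kb in replicate 2. Within the cluster's span, 9 other regions lacked a peak in at least 1 E14.5 library.

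The other pair of large clusters lay on chromosome 7. Between Xpo6 and Lat, across Sbk1 (chr7:126210108-126321290) 7 members of 616 to 3031 bp stood with 3 regions marked in 1 E18.5 library and none retained within the span. Downstream of Foxi2, a forkhead factor, 6 members (chr7:135415672-135484451) ran towards Clrn3 over 68780 bp, starting 665 bp from the retained Foxi2 domain. Their percentiles stayed between 20.4 and 50.03 in replicate 1 and between 3.37 and 47.9 in replicate 2.

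**Figure D5:**
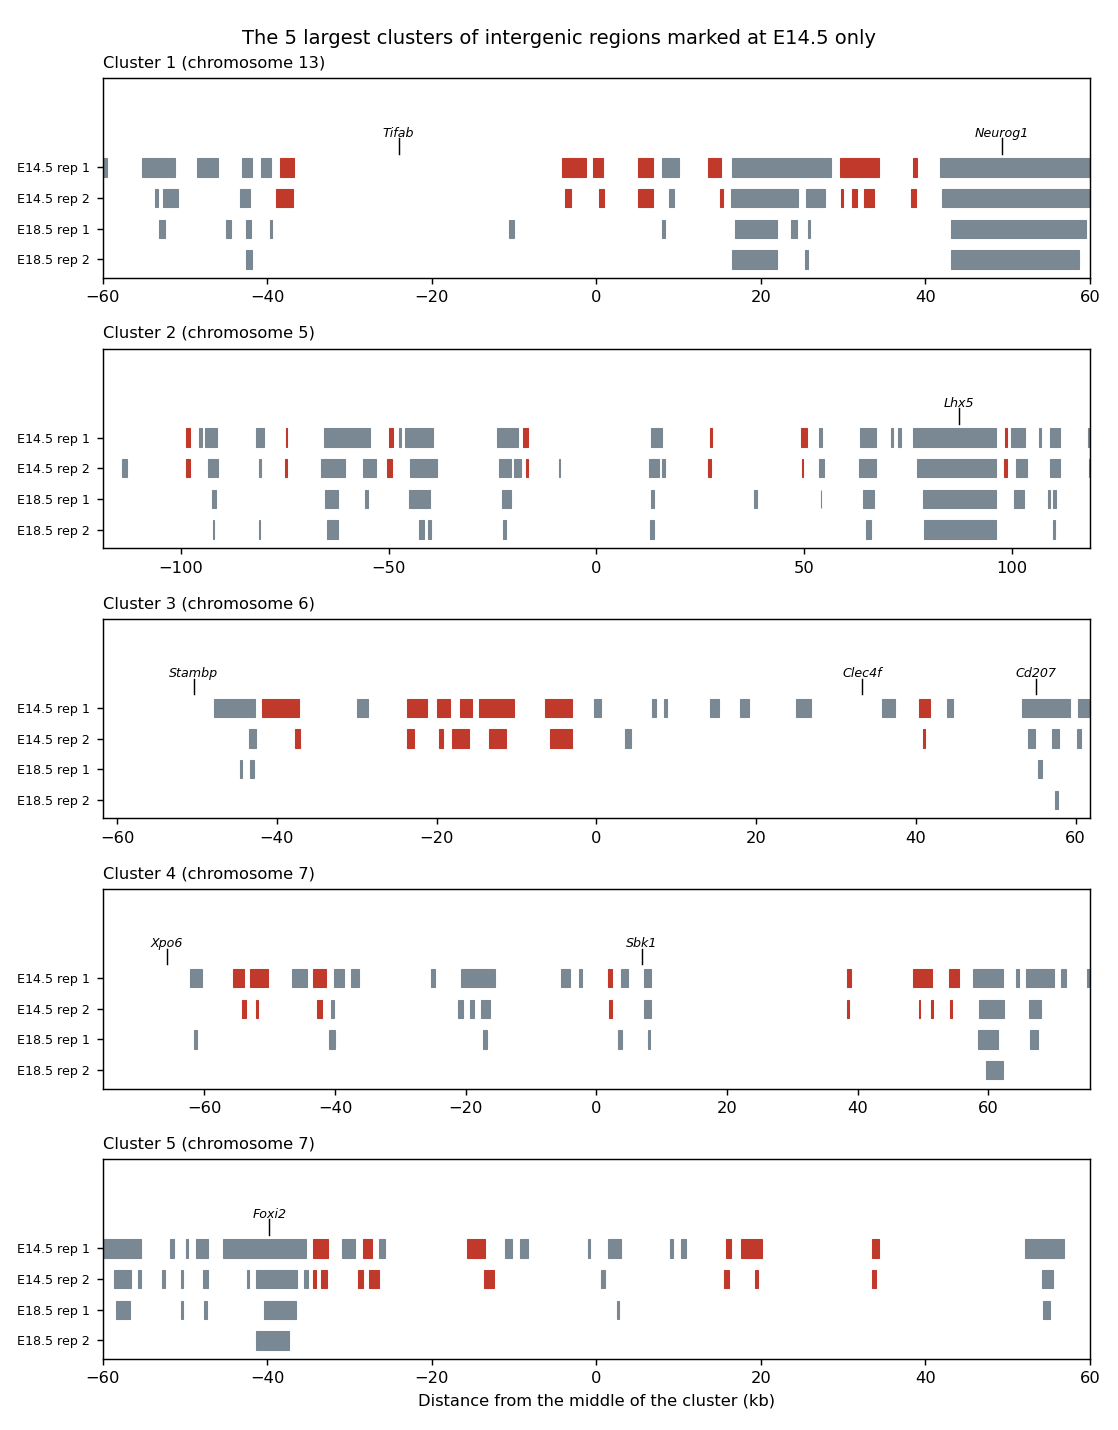
Peaks of the 4 libraries around the 5 largest clusters of intergenic regions marked at E14.5 only, by distance from the middle of the cluster (kb), with members in red, all other peaks in grey and protein-coding start sites marked above. The cluster of 7 on chromosome 5 has 7 retained regions within its span, and the one on chromosome 6 has no retained region within its span.

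By nearest start site the members belonged to 1491 protein-coding genes, 326 of them with 2 or more members and 17 with 5 or more. Mtx2 led with 9, at 132209 to 352482 bp, all in the gene-free stretch between Mtx2 and Hnrnpa3 (chr2:75001191-75224376), the interval beside the Hoxd cluster that is known for limb enhancers. They were 731 to 3474 bp long, with percentiles of 31.6 to 78.8 in replicate 1 and 5.94 to 77.9 in replicate 2, and 1 retained intergenic region had Mtx2 as its nearest gene. The Mtx2 promoter itself held no peak in any library.

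Sall1, a zinc finger repressor of limb and kidney development, had 8 members at 31940 to 592311 bp, 7 of them upstream, and its promoter kept its peaks in all 4 libraries. Rybp, a subunit of variant Polycomb repressive complex 1, also had 8, between Shq1 and Prok2. Prok2, the next gene, had 5. The orphan nuclear receptor gene Nr2f2 had 6 at 8167 to 528824 bp, and the ligand gene Bmp2 6 at 14377 to 206826 bp, both with a retained promoter. Ackr3 (a chemokine scavenging receptor), Mki67 (a proliferation marker) and Tle3 (a Groucho corepressor) had 6 each. In that group the Tle3 promoter held no peak, and the Ackr3 promoter had peaks at E14.5 and in 1 E18.5 library.

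Of the genes with 5, Cadm1 (a cell adhesion molecule), Dio3 (the deiodinase that inactivates thyroid hormone), Foxi2, Irx3 and Prok2 had retained promoters. Irx3, an Iroquois homeobox gene, had its 5 at 70065 to 218971 bp in the interval shared with Fto and Irx5. The 5 assigned to Cdkn3 lay between it and Bmp4 at 34647 to 147652 bp from Cdkn3, and Rragc had 5 at 67845 to 332365 bp.

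The promoter of the nearest gene carried peaks in all 4 libraries for 600 members (29.9%), in both E14.5 libraries alone for 128 (6.37%) and in no library for 974 (48.5%). For retained intergenic regions these shares were 32.4%, 5.01% and 49.8%, and for the points 20.9%, 5.16% and 64.9%.

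Transcription factor genes of the homeobox, Fox, Sox, Tbx, bHLH and Zic or Gli families were nearest to 174 members (8.67%), against 10.7% of retained intergenic regions and 3.70% of the points. The families are 1.78% of protein-coding genes. Homeobox genes took 99 members (4.93%, retained 6.85%), at 65 genes, and 83.8% of the 99 lay by a promoter with peaks in all 4 libraries. Fox genes took 32 (1.59%, retained 1.02%), bHLH genes 25 (1.25%, retained 1.02%), Sox genes 12 (0.598%, retained 0.613%) and Zic or Gli genes 1 (0.0498%, retained 0.102%). T-box genes took 5 (0.249%) and were nearest to 11 retained regions (1.12%).

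Each signalling list was nearest to fewer members than the transcription factor families together, and held 38 to 69 genes against 370. TGF-beta and BMP pathway genes were nearest to 23 members, Wnt pathway genes to 16, hedgehog and Notch genes to 10 and FGF pathway genes to 7. These are 1.15%, 0.797%, 0.498% and 0.349% of members, against 0.652%, 0.428%, 0.296% and 0.598% of the points. Of retained intergenic regions they are 0.920%, 1.02%, 0.409% and 0.307%. Genes of the dermal fibroblast list took 18 (0.896%, points 0.641%). Of families expressed in neurons, potassium channel genes took 23 (1.15%, points 1.08%), axon guidance genes 20 (0.996%, points 1.63%), cadherins and protocadherins 12 (0.598%, points 3.16%) and neurotransmitter receptor genes 8 (0.398%, points 1.23%). Olfactory and vomeronasal receptor genes took 15 (0.747%, points 2.68%), and Zfp zinc finger genes 35 (1.74%, points 1.72%). Among retained intergenic regions the shares were 0.511% (dermal fibroblast list), 1.02% (potassium channels), 0.920% (axon guidance), 0.409% (cadherins and protocadherins) and 0.511% (neurotransmitter receptors). They were 0.307% for olfactory and vomeronasal receptors and 2.15% for Zfp genes.

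The dermal papilla is the fibroblast condensate at the base of the hair follicle, and dermal adipocytes arise from the lower dermal lineage. Of 32 dermal papilla genes, 13 (40.6%) had a member nearest to them or within 100 kb of a start site. By the same rule 4515 of all 20780 protein-coding genes (21.7%) had one. As nearest gene, 20 members had one of 11 of the dermal papilla genes. That is 0.996% of members, against 0.796% of regions with 1 E18.5 peak, 0.511% of retained intergenic regions and 0.582% of the points. Of 25 adipogenic genes, 9 (36%) had a member by the same rule, and 7 members had 1 of 6 as nearest (0.349%, points 0.234%). No retained intergenic region, and none with 1 E18.5 peak, was nearest to a gene of the adipogenic list. The 7 members were thus 0.175% of the 3991 intergenic regions shared by the E14.5 libraries, below the share of the points. With so few regions by this list, little can be read from the absence of retained ones.

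Around the Wnt agonist gene Rspo1, 2 members of 2132 and 2435 bp lay 14338 and 6491 bp upstream. The nearer one had a fold enrichment of 3.77 in replicate 1 and 3.30 in replicate 2, and it stood 1052 bp from the retained Rspo1 domain. Its relative Rspo2 had 1 member, 24359 bp upstream, at percentiles of 13.8 and 11.99. The region 49928 bp downstream of Runx3, a Runt factor, was among the stronger members, with fold enrichments of 5.00 and 3.85 and percentiles of 92.5 and 68.8. Beside Alpl, the alkaline phosphatase used to stain dermal papillae, members lay 3241 and 10344 bp upstream, 1012 and 8115 bp from retained H3K27me3.

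Tbx18, a T-box factor of early dermal condensates, had its widest member of 6965 bp at 173077 bp downstream (chr9:87550455-87557419), covered by 6879 bp of peak in replicate 1 and 6191 bp in replicate 2, with fold enrichments of 3.60 and 3.81. Its promoter belonged to the group with peaks in both E14.5 libraries and none at E18.5. So did that of Trps1, a GATA-type repressor of hair and bone development, which had 4 members at 34748 to 435073 bp upstream. The Nog promoter was in that group too. Those of Alpl, Bmp4, Foxd1, Hey1, Notum, Rspo1, Rspo2, Runx3 and Wif1 had peaks in all 4 libraries. Of the 20 members with a dermal papilla gene nearest, 65% lay by a promoter with peaks in all 4. The BMP ligand gene Bmp4 had members 26757 and 47753 bp upstream, with percentiles of 61.4 and 76.5 at the nearer and 37.4 and 18.45 at the farther. Foxd1 was nearest to 2, at 56864 and 66813 bp, and had 2 more at 18659 and 92217 bp whose nearest genes were Btf3 and Gm10320. Hey1, a Notch target, had 2 at 17929 and 97864 bp. The Wnt inhibitor gene Wif1 had 1, 45337 bp downstream. The BMP antagonist gene Nog had 1 at 70809 bp, 312 bp long, none of whose pieces matched a single place in the genome. Crabp1 and Notum had members within 100 kb whose nearest start sites were those of Dnaja4, Ireb2 and Cbr2.

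Pparg, the master regulator of adipocyte differentiation, had 1 member 16644 bp upstream (chr6:115343929-115344306). It was 378 bp long, with fold enrichments of 3.41 and 3.94 and percentiles of 65.4 and 72.1, and its nearest retained region was 201186 bp away. The Pparg promoter also had peaks in both E14.5 libraries alone. A member of 3526 bp lay between Cebpg and Cebpa, 31445 bp from the start site of Cebpa, with percentiles of 67.3 and 47.8, and the Cebpa promoter was in the same group. Zfp423, a preadipocyte zinc finger gene, had 1 of 2865 bp at 13524 bp upstream with fold enrichments of 3.36 and 4.05, and its promoter was retained.

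Members also lay by the remaining adipogenic genes. Ebf1 had 2, at 3421 and 364751 bp, with percentiles in replicate 2 of 9.68 and 29.1. Klf5 had 1 at 17824 bp, Mest 1 at 11916 bp and Ppargc1a 1 at 17401 bp. The Ppargc1a member was 3742 bp wide in replicate 1 and 259 bp in replicate 2. Around Plin1 and Prdm16 lay 3 members and 1 within 100 kb, whose nearest genes were Rhcg, Anpep and Actrt2.

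Ranked by mean percentile over the E14.5 libraries, the top 10 members differed in kind. The first, 259 bp long and 28693 bp downstream of Lsmem1, had fold enrichments of 4.83 and 5.82, with 50% of its pieces unique. The second, near Gm8220, was 294 bp long with 4.87 and 5.44, and no retained region lay within 607316 bp. The member near Arntl2, a circadian factor gene, had 5.64 and 4.55, with 45.5% of pieces unique and repeats over 100% of its centre. Of these 10, 3 had fewer than 80% unique pieces.

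The member near Cdkn2c was the longest of the 10. Cdkn2c encodes the cell cycle inhibitor p18, and the region (chr4:109653405-109660441) was 7037 bp long, lay 4930 bp downstream of the start site and overlapped the noncoding gene 9630013D21Rik. Peaks covered 7037 bp in replicate 1 and 5263 bp in replicate 2, with fold enrichments of 4.73 and 4.90. Its central window was 61.6% G + C with a CG ratio of 0.580, and the CG-rich sequence printed above lies in the region. The nearest E18.5 peak was 311589 bp away.

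Of the rest, the members near Gm2310, Fblim1, Plch1, Nog, Tbx4 and 4933412E24Rik had mean percentiles of 88.1, 85.1, 85.0, 84.5, 84.4 and 83.1. The one near Tbx4, a T-box gene of the hindlimb, was 1534 bp long, had 4.02 and 4.58, and stood 1090 bp from a retained region. The one near Plch1 stood 3802 bp from one.

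The 5 members farthest from a start site differed in how much of their sequence was unique. The farthest, 1737220 bp from D3Ertd751e and 1889694 bp from Pcdh10 on chromosome 3, was 287 bp long with 0% of pieces unique, as was the one of 273 bp between Pabpc4l and Pcdh18. The 2 by Efna5, an ephrin ligand gene, at 1305696 and 1281288 bp, were 2522 and 745 bp long with 96% and 100% of pieces unique, and lay 1394 and 793 bp from a retained region. The remaining one lay 1576635 bp from G6pd2, towards Pcdh7, with 60% unique.

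The widest 5 were regions of 8730 bp between Gm5447 and Foxq1, 8503 bp near Ktn1 and Atg14, 8482 bp near Gm12830 towards Trabd2b, 7920 bp near Irs2 towards Myo16, and 7599 bp between Rheb and Prkag2. Their widths differed between libraries. Peaks covered 8503 bp of the Ktn1 region in replicate 1 and 247 bp in replicate 2, whereas the Irs2 region, by the insulin receptor substrate gene, had 7896 and 5006 bp, with fold enrichments of 3.83 and 3.89.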

How the data were processed

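H3K27me3 ChIP-seq was analysed in 4 libraries, 2 labelled E14 and 2 labelled E17, from 1 broad peak list per library, and the input library was not analysed here. The submitters' processing notes name Bowtie2 2.3.5.1, SAMtools 1.9, MACS2 2.2.7.1, deepTools 3.5.1 and mm10. Per the methods the authors called broad peaks at a q-value limit of 0.01, and the deposited lists are 1 per library. The control of that call is not given in the sources used here. The deposited values are positions, a fold enrichment (ratio to local background), and −log10 p-values and −log10 q-values. No read counts are in the lists, so the depth behind a peak could not be read from them. The methods say that E18.5 wild-type and Kdm6b-knockout samples were subsampled to the read depth of the other samples. That wording pairs the wild type with the knockout. Whether the E18.5 libraries used here were included is not stated and could not be checked. The deposited 0 to 1000 display score was not used.

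Peaks were merged with an overlap of 1 bp on chromosomes 1 to 19, and placed by GENCODE vM21 genes (GRCm38, 20780 protein-coding genes on these chromosomes). Strength was compared as the percentile of fold enrichment within a list. Sequence came from RefSeq GRCm38.p6. Uniqueness was read by mapping 100 bp pieces with minimap2 2.31-r1302 at a mapping quality of at least 30. Regions are not replicates and were selected on the contrast of the stages, so they are described by counts, medians and Wilson intervals, with no test. The intergenic genome was read at points every 10000 bp.

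The members and gene lists were chosen with earlier results of these data known. Genes named are the 15 nearest to most members, those at the 10 highest mean percentiles, those beside the 5 largest clusters, the 5 farthest and the 5 widest members, and genes of the dermal papilla and adipogenic lists. Others were chosen after their values were seen. Alternatives were other thresholds, merging distances, annotations and promoter distances, equal lists, and leaving out each library. Python 3.11.15, numpy 2.4.6, pandas 2.3.3, scipy 1.17.1, pysam 0.24.0 and matplotlib 3.10.9 were used, and the steps were tested on simulated data. No column of unmapped samples was present (0).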

Additional observations from a re-analysis of the deposited data

How the results depend on the processing

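The number of members and the share of intergenic E14.5 regions without an E18.5 peak moved with thresholds more than with annotation. The number was 1218 at −log10 q of at least 3, 359 at 5, 1130 at −log10 p of at least 5, 1000 with peaks of at least 1000 bp and 277 with lists of equal number. The share was 55.6%, 61.8%, 45.9%, 56.6% and 25.6% in the same order, and 48.1% when the E14.5 peaks had to overlap by 50% of the shorter. The thresholds on q, p and width applied to both stages, so a region could become a member because its E18.5 peak was removed. Of the 2008 members, 77 had −log10 q of at least 5 in both E14.5 libraries. Of these, 35 had a fold enrichment below the 20th percentile of both lists. Leaving out 1 library gave 2194 to 8359 members and shares of 54.9 to 76.8%. Without E14.5 replicate 1 there were 4384 members and without E14.5 replicate 2 there were 8359, because a single E14.5 list then suffices. Of 16 alternatives, 9 left the number within 1.5 times of 2008 and 6 left the share within its counting interval. The share of members within 100 kb of a retained region ran from 25.6% (−log10 q of at least 5) to 69.6%, the share with another member within 50 kb from 7.22% (lists of equal number) to 73.3%, the share beyond 100 kb of a start site from 18.9 to 31.0%, and the transcription factor share from 7.14 to 10.9%. No paired analysis was possible because no result comes from a test. Without read counts, a region absent from an E18.5 list cannot be told from one just under its threshold.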

Other observations

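Chromosome X, which the rule leaves out, had 26 intergenic regions marked at E14.5 only, 6 with 1 E18.5 peak and 4 retained. Of its 629 intergenic regions, 74 had a peak in E14.5 replicate 1 and 588 in replicate 2, so the E14.5 libraries differed on X in the direction opposite to their autosomal lists.

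MicroRNA genes overlapped 4 members, near Slc8a1, Zmat2, Mrto4 and Kif22, a count read after the lists were seen.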
